A study of Arabidopsis thaliana with 236 samples.

Results

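Pericycle cells of Arabidopsis roots were compared 20 h and 24 h after seedlings were moved to 5 mM nitrate or to fresh 0.1 mM nitrate. The arrays were chosen by title alone: 6 nitrogen arrays (3 at 20 h and 3 at 24 h) and 5 standard arrays (2 at 20 h and 3 at 24 h), 11 of the series' 126 pericycle arrays, beside which it holds 110 cortex arrays. All plants were of the Col-0 ecotype. They had grown for 9 days in 16 h of light and 8 h of dark, on medium whose only nitrogen was 0.1 mM KNO3, with 30 mM sucrose. The nitrogen group then received plates with 5 mM KNO3 and the standard group fresh plates with 0.1 mM KNO3, both at dawn. A rhizobium arm, used below for comparison, stayed on 0.1 mM KNO3 and received a culture of Sinorhizobium meliloti, a soil bacterium that nodulates legumes but not Arabidopsis. With that light cycle 20 h falls in the dark and 24 h at the next dawn. The labels call the cells 12 days old although growth before transfer lasted 9 days. Roots were turned into protoplasts and pericycle or cortex cells were isolated by fluorescence-activated sorting, so each value comes from amplified RNA of a sorted cell pool; the labels do not name the marker lines. A lower level cannot be told apart from fewer expressing cells in the pool. Whether replicates were grown separately is not stated in the labels. The p-values reflect only how much these arrays scatter, which may be a technical matter.

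The pericycle is the outermost layer of the stele, just inside the endodermis. Lateral roots start from it, and it lies next to the xylem, into which nitrate and other ions are loaded. Inside root cells nitrate is reduced to nitrite and then, in plastids, to ammonium, which enters glutamine and glutamate; reductant for the plastid steps comes from the oxidative pentose phosphate pathway through ferredoxin. Nitrate is also a signal: NIN-like proteins are transcription factors that bind nitrate-responsive promoters, and GARP-type repressors such as HRS1 are induced by nitrate and turn starvation genes down. Genes for the uptake and recycling of scarce nitrogen are typically expressed in starved roots and repressed when nitrate returns.

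The values are log2 levels on an expression array, averaged per locus, and 27143 loci were compared. For each locus the nitrogen minus standard difference was taken at 20 h and at 24 h and the 2 differences were averaged. A locus was called when limma's moderated test, adjusted by Benjamini-Hochberg over all loci, gave an adjusted p below 0.05, in a fit that used every array of the series to estimate the spread. Errors of differences are standard errors of that fit.

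Of the 11 arrays, 3 stood apart on the first principal component, which held 20.5% of their variance. Standard replicate 1 at 20 h lay at -112.6, standard replicate 1 at 24 h at -91.1 and nitrogen replicate 1 at 24 h at -127.1, while the others lay between -6.3 and 82.3. The nitrogen array of these also had the lowest median, 8.44. Results are therefore given with and without these 3 arrays where they differ. The sorted label was checked on markers. NPF7.3, a nitrate loader of the xylem expressed in the pericycle, lay between 8.62 and 11.78 on the nitrogen arrays and between 8.96 and 12.98 on the standard arrays, above all cortex arrays of the same hours (6.17 to 8.10). It was the only one of 11 pericycle and stele markers with no overlap with cortex, and the sodium transporter HKT1 and AHP6, an inhibitor of cytokinin signalling, stayed at or below 5.78 on all 11 pericycle arrays. Markers of other layers were also present. CASP1, a protein of the Casparian strip of the endodermis, had a median of 10.98 on the nitrogen arrays and 12.59 on the standard arrays against 6.80 on the cortex arrays. The root hair regulator RHD6 had a median of 11.71 on the nitrogen arrays and 9.38 on the standard arrays against 6.61 on the cortex arrays. Of 5 cortex markers 4 had a higher median on the pericycle arrays than on the cortex arrays, with a median difference of 0.11. So had 6 of 11 pericycle and stele markers (0.29), 11 of 12 endodermis markers (0.87) and 10 of 11 epidermis and root hair markers (0.90). Root cap gave 4 of 4 (1.005), phloem 7 of 8 (0.52), xylem 5 of 10 (-0.04) and green tissue 1 of 10 (-1.525). Over all 27143 loci it was 14725 (0.05). By these counts and medians the stele list thus leaned less to the pericycle arrays than the endodermis, epidermis and root cap lists. No marker of those other lists lay above all cortex arrays on every pericycle array. The mean level of the 12 endodermis markers ranged from 6.95 to 10.77 on the nitrogen arrays and from 7.38 to 9.67 on the standard arrays, and that of 11 epidermis and root hair markers from 7.48 to 11.00 on the nitrogen arrays and from 7.88 to 9.06 on the standard arrays. The mean of 10 green tissue markers reached 11.44 on nitrogen replicate 2 at 20 h. Limma called none of the 71 marker loci in 8 lists between nitrogen and standard, and 8 had an unadjusted p below 0.05. Over all loci 3713 (13.7%) had one, the share to set beside such counts for this comparison in the lists below. That no marker was called does not show that the mix of cells was the same. The part of other cell types in the results below was not tested.

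On nitrogen the pericycle carried more transcript of 3 of 11 nitrate assimilation genes and of 1 of 19 regulators of the nitrate response. It carried less of 3 of 15 nitrogen starvation genes, of 3 of 9 NIN-like proteins and of an amino acid permease. Lipid remodelling and ribonuclease genes known from phosphate starvation were also lower (3 of 18). In all, 443 loci were called, 1.63% of those tested, 180 higher (0.663%) and 263 lower (0.969%) on nitrogen. Of these, 322 differed by at least 1 log2 unit. The sign was the same at both hours for 440, which calling on the average of the 2 hours favours. The median difference over all loci was 0.01. All nitrogen arrays lay above all standard arrays at 241 loci (0.888% of all) and below at 252 (0.928%), and of the called loci 76 and 85 were so separated. In 22 lists of genes grouped by function, 27 of 333 loci were called (8.11%), 7 higher and 20 lower. The lists were chosen with earlier results of these data known, so this share cannot be weighed against that of all loci. Of the 27 called list loci, 5 were also called without the 3 arrays that stood apart and 7 in the fit of pericycle arrays alone.

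The count of calls rested on the standard arrays that stood apart. It was 64 without standard replicate 1 at 20 h, which leaves 1 standard array at that hour, and 126 without standard replicate 1 at 24 h. It was 43 (0.158%) without all 3 such arrays, 31 of them among the 443. When only pericycle arrays, which scatter more than cortex arrays, set the spread, 49 loci were called (0.181%), all of them among the 443. When only the 4 groups compared set the spread, 1 locus was called, AT5G62720. The full fit and the fits that left out each of the 11 arrays in turn all called 29 loci, 13 higher and 16 lower, which are written below as called throughout.

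**Figure D1:**
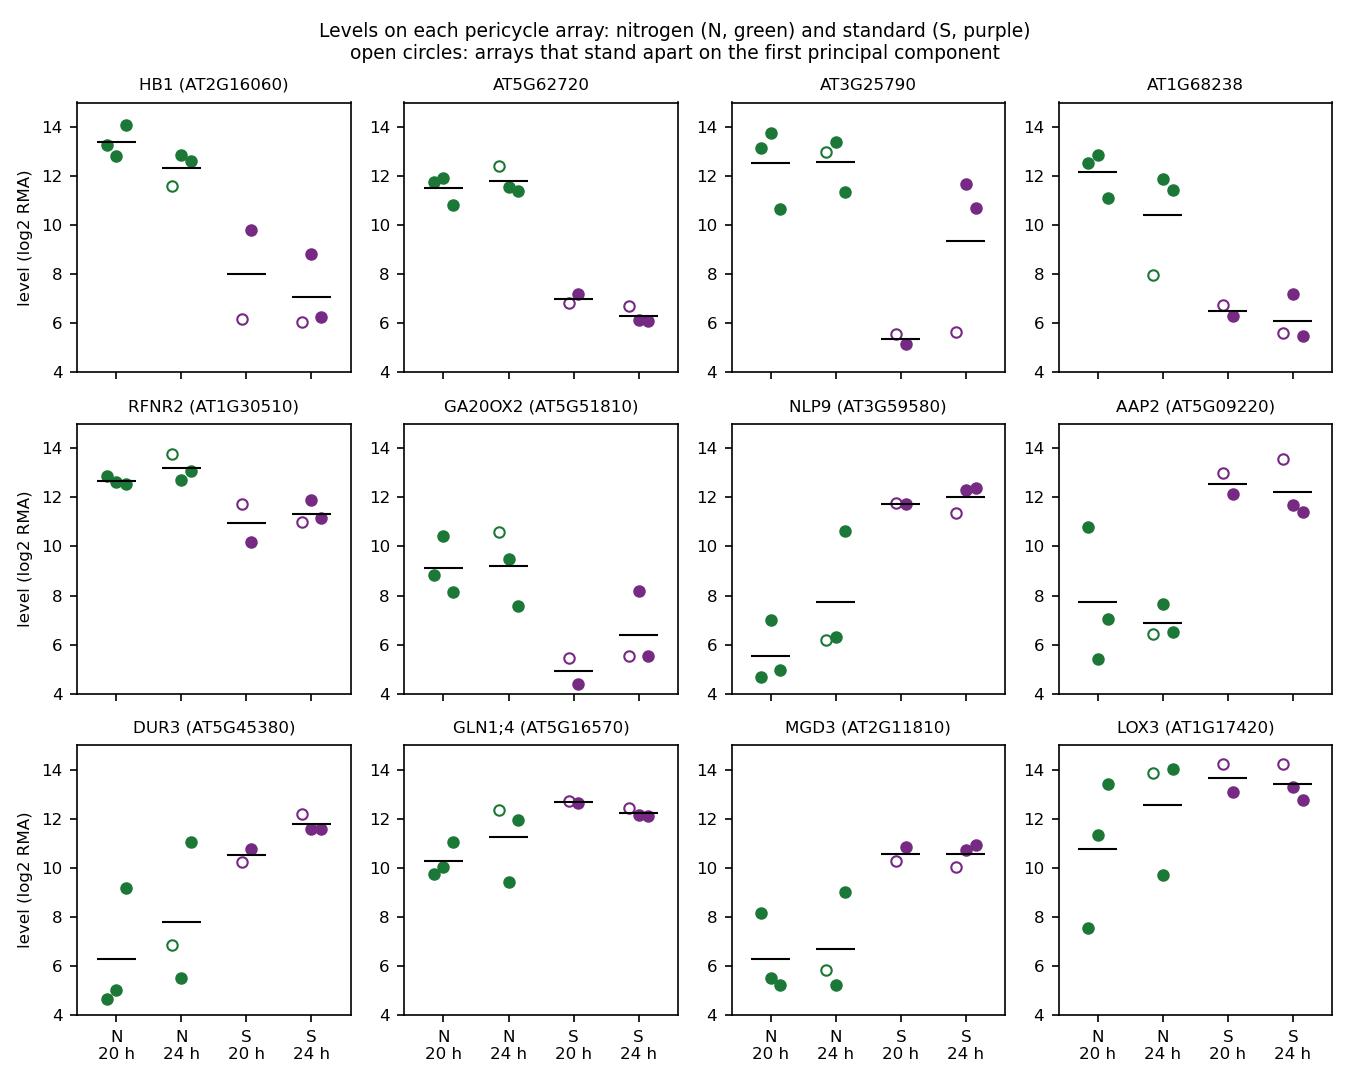
Log2 level of 12 loci on each of the 11 pericycle arrays, nitrogen (N) in green left of standard (S) in purple, at 20 h and 24 h; bars are means and open circles mark the 3 arrays that stood apart. For HB1, AT5G62720, AT1G68238, RFNR2, NLP9, AAP2 and MGD3 the nitrogen and standard arrays do not overlap, while for LOX3 they do.

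Of 11 nitrate assimilation genes, 3 rose, none fell and 8 were not called; the list's median difference was 0.13, against 0.01 over all loci. Its mean level ranged from 12.08 to 12.88 on the nitrogen arrays and from 10.85 to 11.60 on the standard arrays, without overlap. The shift of this mean came mostly from HB1 and AT5G62720, described below, and not from the list as a whole. The largest rise was in HB1 (AT2G16060), a non-symbiotic haemoglobin that removes nitric oxide. HB1 stood at 13.27, 12.81 and 14.08 on the nitrogen arrays at 20 h and at 11.60, 12.85 and 12.60 at 24 h, against 6.19 and 9.81 on the standard arrays at 20 h and 6.07, 8.84 and 6.26 at 24 h. Every nitrogen array was above every standard array. The difference was 5.34 ± 0.86 (adjusted p = 7.18e-05), and HB1 was called throughout, in the fit of pericycle arrays alone (adjusted p = 0.00134) and without the 3 arrays (adjusted p = 0.0470).

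AT5G62720, listed with assimilation and printed by its locus because the annotation used gives it no symbol, had the smallest adjusted p of all loci. It stood at 11.76, 11.91 and 10.81 on the nitrogen arrays at 20 h and at 12.40, 11.56 and 11.39 at 24 h, against 6.84 and 7.17 on the standard arrays at 20 h and 6.72, 6.15 and 6.08 at 24 h. No nitrogen array came near a standard array. The difference was 4.98 ± 0.74 (adjusted p = 8.33e-06), with an adjusted p of 0.00552 without the 3 arrays. GLN2, the plastid glutamine synthetase that fixes ammonium, rose by 1.00 ± 0.29 (adjusted p = 0.0411), with overlapping arrays, and lost the call without the 3 arrays (0.55, adjusted p = 0.675).

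The enzymes of nitrate and nitrite reduction were not called. The nitrate reductase genes NIA1 and NIA2 differed by 0.09 ± 0.22 and -0.31 ± 0.17 and the nitrite reductase gene NIR1 by 0.24 ± 0.28. NIA1 ranged from 12.80 to 14.55 on the nitrogen arrays and from 13.66 to 14.13 on the standard arrays, so it was high in both. UPM1, which makes the haem-like cofactor of nitrite reductase, differed by 0.13 ± 0.24. None of 16 nitrate transport genes was called by limma, and 1 had an unadjusted p below 0.05. In that list NRT2.1, a high-affinity nitrate transporter, differed by 0.82 ± 0.65, its partner NRT3.1 by -2.52 ± 0.94 (adjusted p = 0.158) and the transceptor NPF6.3 by -0.43 ± 0.53.

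Among 12 genes for reductant and carbon skeletons, 2 rose, none fell and 10 were not called. RFNR2 (AT1G30510), the root ferredoxin reductase that passes electrons to ferredoxin, stood at 12.89, 12.63 and 12.53 on the nitrogen arrays at 20 h and 13.76, 12.71 and 13.08 at 24 h, against 11.72 and 10.19 on the standard arrays at 20 h and 10.98, 11.89 and 11.15 at 24 h. The groups did not overlap. The difference was 1.78 ± 0.41 (adjusted p = 0.00867). G6PD3, a plastid glucose-6-phosphate dehydrogenase of the oxidative pentose phosphate pathway, ranged from 12.38 to 13.84 on the nitrogen arrays and from 10.20 to 12.24 on the standard arrays and rose by 1.52 ± 0.36 (adjusted p = 0.0121). Without the 3 arrays the differences were 1.93 (adjusted p = 0.0687) for RFNR2 and 1.04 (adjusted p = 0.393) for G6PD3.

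Among 19 regulators of the nitrate response, 1 rose, none fell and 18 were not called; the list's median was 0.38. AT3G25790, which has no symbol in the annotation used, stood at 13.14, 13.74 and 10.67 on the nitrogen arrays at 20 h and 13.00, 13.39 and 11.37 at 24 h, against 5.57 and 5.16 on the standard arrays at 20 h and 5.65, 11.69 and 10.69 at 24 h. The groups were far apart at 20 h and overlapped at 24 h, where 1 standard array (11.69) lay within the range of the nitrogen arrays. Its difference was 5.20 ± 0.98 (adjusted p = 0.000843); it was called throughout, but not without the 3 arrays (4.28, adjusted p = 0.0905). HRS1, the GARP-type repressor named above, ranged from 12.92 to 13.84 on the nitrogen arrays and from 10.01 to 12.82 on the standard arrays, with no overlap, but its difference of 1.76 ± 0.56 was not called (adjusted p = 0.0810). It was called without standard replicate 2 at 24 h (2.08, adjusted p = 0.0426). BT2, a scaffold protein of the nitrate response, also had all nitrogen arrays above all standard arrays (11.47 to 13.60 against 7.69 to 11.17) and a difference of 1.93 ± 0.60 that was not called (adjusted p = 0.0745). LBD37, LBD38 and LBD39, repressors of nitrogen genes, differed by 0.38, 0.81 and 1.2 and were not called.

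Of the 9 NIN-like proteins 3 fell, none rose and 6 were not called, and the median difference of the family was -1.06. The family's mean level ranged from 9.08 to 10.65 on the nitrogen arrays and from 11.30 to 12.23 on the standard arrays. NLP9 (AT3G59580) had the largest fall among all called loci. It stood at 4.68, 6.99 and 4.97 on the nitrogen arrays at 20 h and 6.20, 6.31 and 10.64 at 24 h, against 11.78 and 11.72 on the standard arrays at 20 h and 11.37, 12.31 and 12.37 at 24 h. Nitrogen replicate 3 at 24 h was the highest nitrogen array and was still below every standard array. The difference was -5.25 ± 0.92 (adjusted p = 0.000390) and NLP9 was called throughout, in the fit of pericycle arrays alone (adjusted p = 0.00835) and without the 3 arrays (adjusted p = 0.0350). NLP3 fell by 2.68 ± 0.65 on the log2 scale (adjusted p = 0.0130) and NLP8, known from nitrate-promoted seed germination, fell by 2.44 ± 0.60 (adjusted p = 0.0161), both with overlapping arrays. Without the 3 arrays their differences were -2.48 (adjusted p = 0.177) and -2.99 (adjusted p = 0.0571), while NLP2, not called with all arrays (-2.24, adjusted p = 0.0923), was called at -3.71 (adjusted p = 0.0402). NLP7, a nitrate sensor that acts early in the response, differed by -0.68 ± 0.33 and was not called, although all nitrogen arrays (11.29 to 12.43) lay below all standard arrays (12.47 to 13.30).

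Of 15 genes of nitrogen starvation and recycling 3 fell, none rose and 12 were not called, with a median of -0.47. DUR3 (AT5G45380), a high-affinity urea transporter, stood at 4.63, 5.01 and 9.19 on the nitrogen arrays at 20 h and 6.86, 5.50 and 11.07 at 24 h, against 10.26 and 10.77 on the standard arrays at 20 h and 12.21, 11.59 and 11.60 at 24 h. Only nitrogen replicate 3 at 24 h reached into the range of the standard arrays. The difference was -4.11 ± 0.98 (adjusted p = 0.0129). GLN1;4, a cytosolic glutamine synthetase of starved roots, ranged from 9.42 to 12.36 on the nitrogen arrays and from 12.11 to 12.71 on the standard arrays and fell by 1.70 ± 0.36 (adjusted p = 0.00554, and 0.0378 without the 3 arrays). GDH3, a subunit of the glutamate dehydrogenase that releases ammonium from glutamate, fell by 1.96 ± 0.57 (adjusted p = 0.0468). DUR3 and GDH3 lost the call without the 3 arrays (adjusted p = 0.160 and 0.235). The asparagine synthetase gene ASN1 (-1.39 ± 0.45, adjusted p = 0.0837) and the ammonium transporter gene AMT1;1 (-1.19 ± 0.40, adjusted p = 0.103) were not called.

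Among 8 amino acid transporters only AAP2 was called, lower on nitrogen. AAP2 (AT5G09220), a permease that moves amino acids between xylem and phloem, stood at 10.80, 5.41 and 7.05 on the nitrogen arrays at 20 h and 6.42, 7.67 and 6.53 at 24 h, against 13.00 and 12.12 on the standard arrays at 20 h and 13.56, 11.69 and 11.42 at 24 h. The groups did not overlap, with nitrogen replicate 1 at 20 h closest to the standard arrays. The difference was -5.08 ± 0.99 (adjusted p = 0.00182). It was called throughout but not without the 3 arrays (-4.41, adjusted p = 0.0905).

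Phosphate, sulfur and sugar genes gave 6 falls and no rise. Of 18 phosphate starvation genes 3 fell. MGD3 (AT2G11810) and MGD2 (AT5G20410) encode enzymes that make galactolipids, which replace phospholipids in membranes. MGD3 stood at 8.16, 5.51 and 5.23 on the nitrogen arrays at 20 h and 5.83, 5.23 and 9.00 at 24 h, against 10.27 and 10.84 on the standard arrays at 20 h and 10.05, 10.72 and 10.93 at 24 h. All nitrogen arrays were below all standard arrays. The difference was -4.07 ± 0.71 (adjusted p = 0.000390, and 0.0174 without the 3 arrays), and MGD3 was called throughout. MGD2 also had no overlap (6.37 to 9.83 on nitrogen, 10.37 to 11.85 on standard) and fell by 2.67 ± 0.62 (adjusted p = 0.00966). RNS1, a secreted ribonuclease, fell by 2.97 ± 0.80 (adjusted p = 0.0280). At 20 h it stood at 10.38, 4.85 and 10.16 on the nitrogen arrays against 14.34 and 13.23 on the standard arrays. Its difference was larger at 20 h than at 24 h, but the test between the hours did not call it. The phosphate transporter PHT1;1 (0.54) and the phosphate sensor gene SPX1 (-0.32) were not called. Of 9 sulfur genes, APR1 and APR3, reductases of activated sulfate, fell by 0.84 ± 0.22 and 0.88 ± 0.23 (adjusted p = 0.0244 and 0.0249). Of 9 sugar and energy genes, TPS11, a trehalose phosphate synthase-like protein, fell by 1.28 ± 0.35 (adjusted p = 0.0333). None of RNS1, MGD2, APR1, APR3 and TPS11 was called without the 3 arrays, where their adjusted p ranged from 0.0852 to 0.261.

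**Figure D2:**
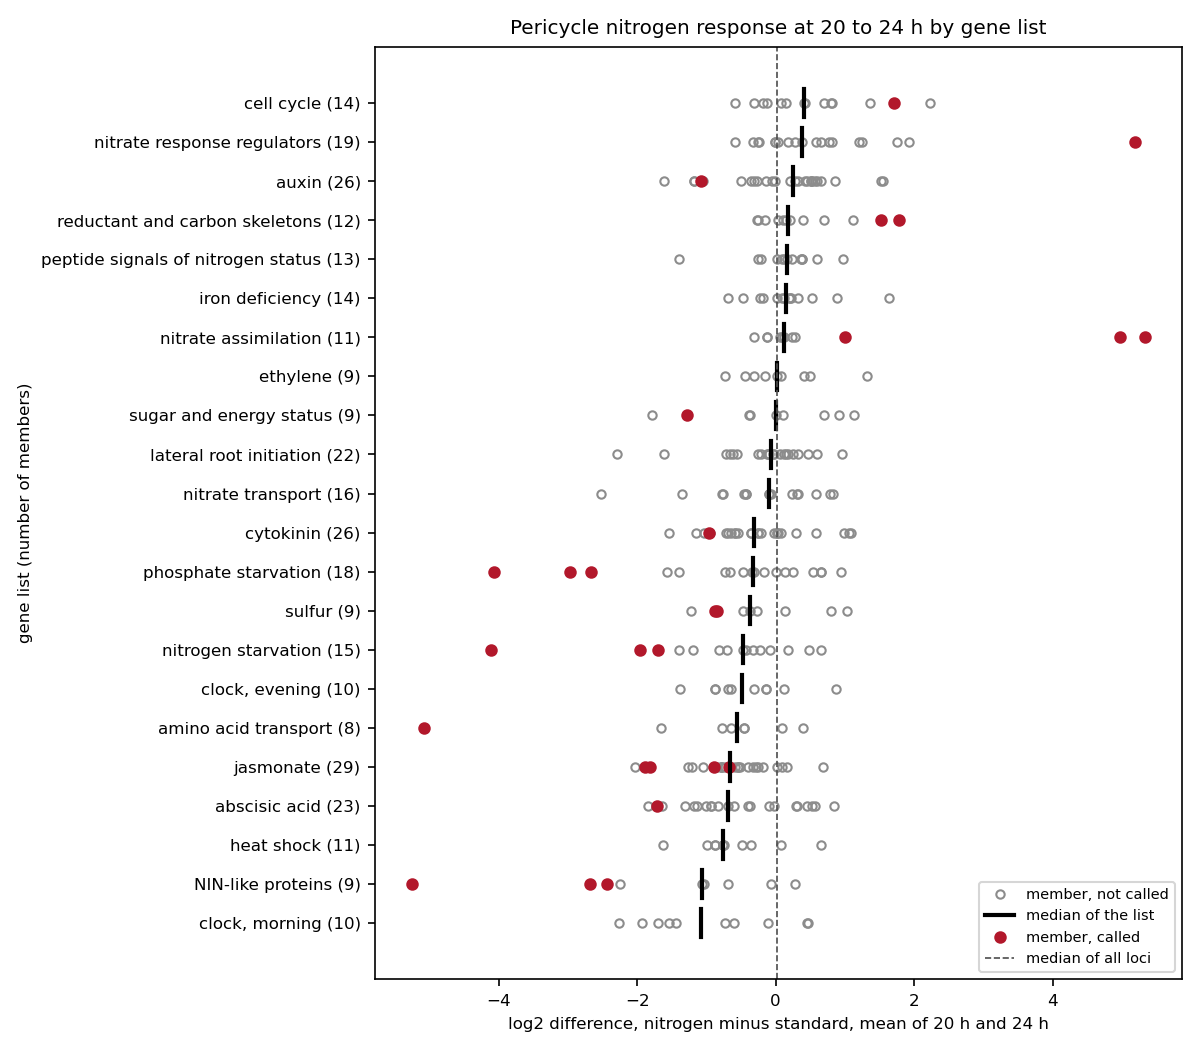
Log2 difference of each member of 22 gene lists, nitrogen minus standard, averaged over 20 h and 24 h; filled red points are called, open points are not, bars are list medians and the dashed line is the median of all loci (0.01). Called members lie to the right for nitrate assimilation, reductant, regulators and cell cycle and to the left for the other lists that hold any.

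Few genes of the jasmonate, abscisic acid, cytokinin and auxin lists were called, and all those called were lower on nitrogen. Limma gave an unadjusted p below 0.05 to 15 of 29 jasmonate genes and 9 of 23 abscisic acid genes. For cytokinin it was 6 of 26 and for auxin 2 of 26, against 13.7% of all loci. These lists too were chosen with earlier results of these data known. Of 29 jasmonate genes 4 fell and none rose, and the list's median was -0.65. LOX3, which starts jasmonate synthesis, stood at 7.56, 11.35 and 13.44 on the nitrogen arrays at 20 h and 13.88, 9.71 and 14.04 at 24 h, against 14.22 and 13.09 on the standard arrays at 20 h and 14.24, 13.28 and 12.78 at 24 h. Of the 6 nitrogen arrays 3 were in the range of the standard arrays. The difference was -1.88 ± 0.53 (adjusted p = 0.0356). OPR3, a later step of synthesis, fell by 0.68 ± 0.20, the repressor JAZ3 by 0.89 ± 0.20 and CYP94B3, which inactivates the active hormone, by 1.81 ± 0.51 (adjusted p = 0.0475, 0.00849 and 0.0404). None of the 4 was called without the 3 arrays, and the list's median was then -0.50. The abscisic acid list had a median of -0.69, and 1 of 23 genes, the transcription factor ABF3, fell (-1.72 ± 0.49, adjusted p = 0.0389); in that list RD29B (-1.84, adjusted p = 0.0921) and HAI1 (-1.73, adjusted p = 0.129) were not called. Of 26 cytokinin genes LOG7, which releases active cytokinin, fell by 0.96 ± 0.21 (adjusted p = 0.00810). ABF3 and LOG7 were not called without the 3 arrays (adjusted p = 0.104 and 0.0962).

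Genes of auxin and lateral root formation were mostly not called. IAA19, an auxin-induced repressor of auxin signalling, was the only call among 26 auxin genes: it ranged from 12.29 to 13.46 on the nitrogen arrays and from 13.48 to 14.05 on the standard arrays, with no overlap, and fell by 1.07 ± 0.28 (adjusted p = 0.0228, and 0.156 without the 3 arrays). The list's median was 0.25, and -0.16 without the 3 arrays. None of 22 lateral root initiation genes was called by limma, with 2 at an unadjusted p below 0.05 and a median of -0.07; GATA23, a marker of founder cells, differed by 0.97 (adjusted p = 0.697) and LBD16 by 0.48 (adjusted p = 0.926). In the cell cycle list, CYCD4;1, a D-type cyclin linked to pericycle divisions, rose by 1.71 ± 0.49 (adjusted p = 0.0423) and the other 13 members were not called. Without the 3 arrays CYCD4;1 differed by 1.35 (adjusted p = 0.407).

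Further lists held no call. Peptide signals of nitrogen status (13 genes) had a median of 0.17, ethylene (9) of 0.02 and iron deficiency (14) of 0.16, with 0, 1 and 0 genes at an unadjusted p below 0.05; without the 3 arrays these medians were 0.27, -0.48 and 0.29. The morning clock list had a median of -1.08, and -1.005 without the 3 arrays, with 4 of 10 genes at an unadjusted p below 0.05, and the evening list one of -0.48. CCA1, a morning repressor of the clock, ranged from 5.78 to 11.06 on the nitrogen arrays and from 7.98 to 11.99 on the standard arrays (difference -2.26 ± 0.85, adjusted p = 0.167). The 11 heat shock genes had a median of -0.76, and their mean level ranged from 8.36 to 13.11 on the nitrogen arrays and from 9.60 to 11.66 on the standard arrays. The 11 epidermis and root hair markers had a median of 0.86 with 3 at an unadjusted p below 0.05; RHD6 differed by 2.55 ± 0.78 (adjusted p = 0.0641), and the part of these cells in the other results was not tested.

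Beyond the lists, the 15 largest called differences in each direction with one sign at both hours ranged from 3.19 to 5.34 and from -5.25 to -3.27. After HB1 and AT3G25790, the largest rise was in AT1G68238, a locus with no symbol. AT1G68238 stood at 12.52, 12.86 and 11.12 on the nitrogen arrays at 20 h and 7.99, 11.87 and 11.44 at 24 h, against 6.74 and 6.29 on the standard arrays at 20 h and 5.59, 7.19 and 5.46 at 24 h. The groups did not overlap. The difference was 5.00 ± 0.94 (adjusted p = 0.000843, and 0.0136 without the 3 arrays), and it was called throughout. GA20OX2 (AT5G51810), a gibberellin 20-oxidase that makes active gibberellin precursors, stood at 8.83, 10.42 and 8.14 on the nitrogen arrays at 20 h and 10.57, 9.51 and 7.57 at 24 h, against 5.44 and 4.41 on the standard arrays at 20 h and 5.54, 8.17 and 5.53 at 24 h. Only standard replicate 2 at 24 h reached the nitrogen range. GA20OX2 rose by 3.5 ± 0.71 (adjusted p = 0.00283) and was called throughout, but not without the 3 arrays (3.21, adjusted p = 0.0852).

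GSTF14, a glutathione transferase, rose by 4.64 ± 1.08 (adjusted p = 0.0109), with nitrogen arrays from 6.29 to 12.54 and standard arrays from 4.89 to 7.23. The others were NOXY2 (4.03), AT4G27390 (3.98), RRG (3.69), named for retarded root growth of its mutant, AT1G67910 (3.5), MLS (3.35), the malate synthase of the glyoxylate cycle, AT4G02485 (3.33), AT2G32500 (3.32), the P-type cyclin gene cycp3;1 (3.29) and AT1G29250 (3.19). AT4G27390, RRG, MLS and AT4G02485 had no overlap between the groups. Of these 10 loci, AT1G29250 was called without the 3 arrays (3.57, adjusted p = 0.0350).

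Among the largest falls without a symbol, AT2G36630 stood at 8.30, 5.59 and 5.29 on the nitrogen arrays at 20 h and 7.62, 8.88 and 11.72 at 24 h, against 13.27 and 12.62 on the standard arrays at 20 h and 13.09, 11.20 and 11.73 at 24 h. Overlap came from nitrogen replicate 3 at 24 h alone. The difference was -4.58 ± 0.82 (adjusted p = 0.000571) and the locus was called throughout. AT2G40250 (-4.49), AT2G44940 (-3.94) and AT4G12290 (-3.46) were also called throughout and had no overlap between the groups. AT1G56210 fell by 4.26, and all its nitrogen arrays (4.66 to 6.19) lay below all standard arrays (7.70 to 11.18). The sugar transporter of the vacuole membrane TMT2 fell by 3.7 ± 0.93 (adjusted p = 0.0176). AT5G38000 (-3.84), AT5G56840 (-3.77), AT5G53680 (-3.35), AT1G24330 (-3.30) and AT2G34350 (-3.27) completed the set. Of these 11 falls AT2G40250 alone was called without the 3 arrays (-4.46, adjusted p = 0.0388), where AT4G12290 stood at -3.69 (adjusted p = 0.0674) and AT2G36630 at -3.69 (adjusted p = 0.0852), and the highest adjusted p was 0.699.

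The 2 hours gave different numbers of calls, but no locus passed the test of the difference between them. At 20 h 265 loci were called (0.976%), 100 higher (0.368%) and 165 lower (0.608%), and at 24 h 5 (0.0184%), all higher and none lower (0.0%). HB1 (5.39 at 20 h and 5.29 at 24 h) and AT5G62720 (4.49 and 5.47) were called at 24 h on their own, and so were, named here after their values were seen, PBG1, a subunit of the proteasome (0.38 and 1.27), AT1G35400 (-0.12 and 1.88) and AT2G18830 (0.49 and 1.72). AT1G35400 had a median of 4.44 and a highest value of 9.33 over the nitrogen arrays, against a highest value of 4.56 over the standard arrays. The difference was larger in size at 20 h for 390 of the 443 called loci and for 22 of the 27 list members. The share over all loci was not counted, so these counts do not show a stronger response at 20 h. The 20 h difference also rests on 2 standard arrays, and replicate 1 of them stood apart. AT3G25790 differed by 7.15 at 20 h and 3.24 at 24 h, RNS1 by -5.32 and -0.61 and AT2G36630 by -6.55 and -2.60. In the test of the 24 h against the 20 h difference limma called 0 loci (0.0%), with a smallest adjusted p of 0.177 and 1415 loci at an unadjusted p below 0.05. It called 57 loci without standard replicate 2 at 20 h and 6 without standard replicate 1 at 20 h. The 20 h count was 23 without standard replicate 1 at 20 h, and the 24 h count 85 without nitrogen replicate 2 and 59 without nitrogen replicate 3.

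The rhizobium arm was also on 0.1 mM nitrate at the same hours, on 7 arrays, none of which is a standard array; the labels do not say whether plantings or slides were shared. It carried bacteria as well, and rhizobium against standard gave 113 calls (0.416%), with 3977 loci at an unadjusted p below 0.05. Nitrogen against rhizobium gave 415 calls (1.53%), 135 higher (0.497%) and 280 lower (1.03%) on nitrogen. All 27 called list members had the same sign as against standard and 18 were called; both comparisons use the same 6 nitrogen arrays, so their values are given side by side without a measure of likeness. HB1 differed by 3.69 ± 0.79 from rhizobium (adjusted p = 0.00487) and 5.34 from standard, AT5G62720 by 3.61 ± 0.68 (adjusted p = 0.000941) and 4.98, AT3G25790 by 4.58 ± 0.89 (adjusted p = 0.00215) and 5.20, and AT1G68238 by 4.43 ± 0.86 (adjusted p = 0.00193) and 5.00. DUR3 differed by -4.43 ± 0.90 (adjusted p = 0.00274) and -4.11, NLP9 by -4.21 ± 0.84 (adjusted p = 0.00217) and -5.25, and AAP2 by -3.15 ± 0.91 (adjusted p = 0.0454) and -5.08. The rhizobium arrays scattered widely for both leading genes: HB1 lay between 6.39 and 12.01 there and NLP9 between 6.18 and 13.71, so each overlapped the nitrogen arrays.

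Some genes that missed the threshold against standard passed it against rhizobium. HRS1 averaged 13.37 on the nitrogen arrays, 9.94 on the rhizobium arrays and 11.61 on the standard arrays, a difference from rhizobium of 3.43 ± 0.51 (adjusted p = 1.03e-05). TGA1, a regulator of nitrate transporters, was higher than on rhizobium by 1.78 ± 0.43 (adjusted p = 0.0138), UPM1 by 0.89 ± 0.22 (adjusted p = 0.0138), the vacuolar nitrate exchanger CLCA by 1.55 ± 0.44 (adjusted p = 0.0415) and the cytokinin response regulators ARR8 and ARR9 by 1.73 ± 0.37 and 2.02 ± 0.55 (adjusted p = 0.00451 and 0.0318). In the reductant list 5 of 12 genes were higher than on rhizobium, among them G6PD3 (1.68 ± 0.33, adjusted p = 0.00217) and RFNR1 (1.66 ± 0.42, adjusted p = 0.0184). AMT1;1 was lower by 1.52 on the log2 scale (difference -1.52 ± 0.36, adjusted p = 0.0117), and 6 of 29 jasmonate genes were lower, with LOX3 at -2.28 ± 0.48 (adjusted p = 0.00390), while AOC4 was higher by 1.66 ± 0.45 (adjusted p = 0.0294). Besides DUR3, NLP9 and AT2G36630 (-4.13), the largest falls were AT5G56840 (-5.0) and the MYB transcription factor gene MYB84 (-4.17), which differed by -1.52 (adjusted p = 0.490) from standard; the largest rises were AT3G25790, AT1G68238, AT1G61667 (3.74), HB1 and AT5G62720. The count of calls was 93 and 868 without nitrogen replicates 2 and 3 at 24 h, 235, 136 and 808 without nitrogen replicates 1, 2 and 3 at 20 h, and 205 and 780 without rhizobium replicates 2 and 3 at 20 h. It was 113 in the fit of pericycle arrays alone.

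**Figure D3:**
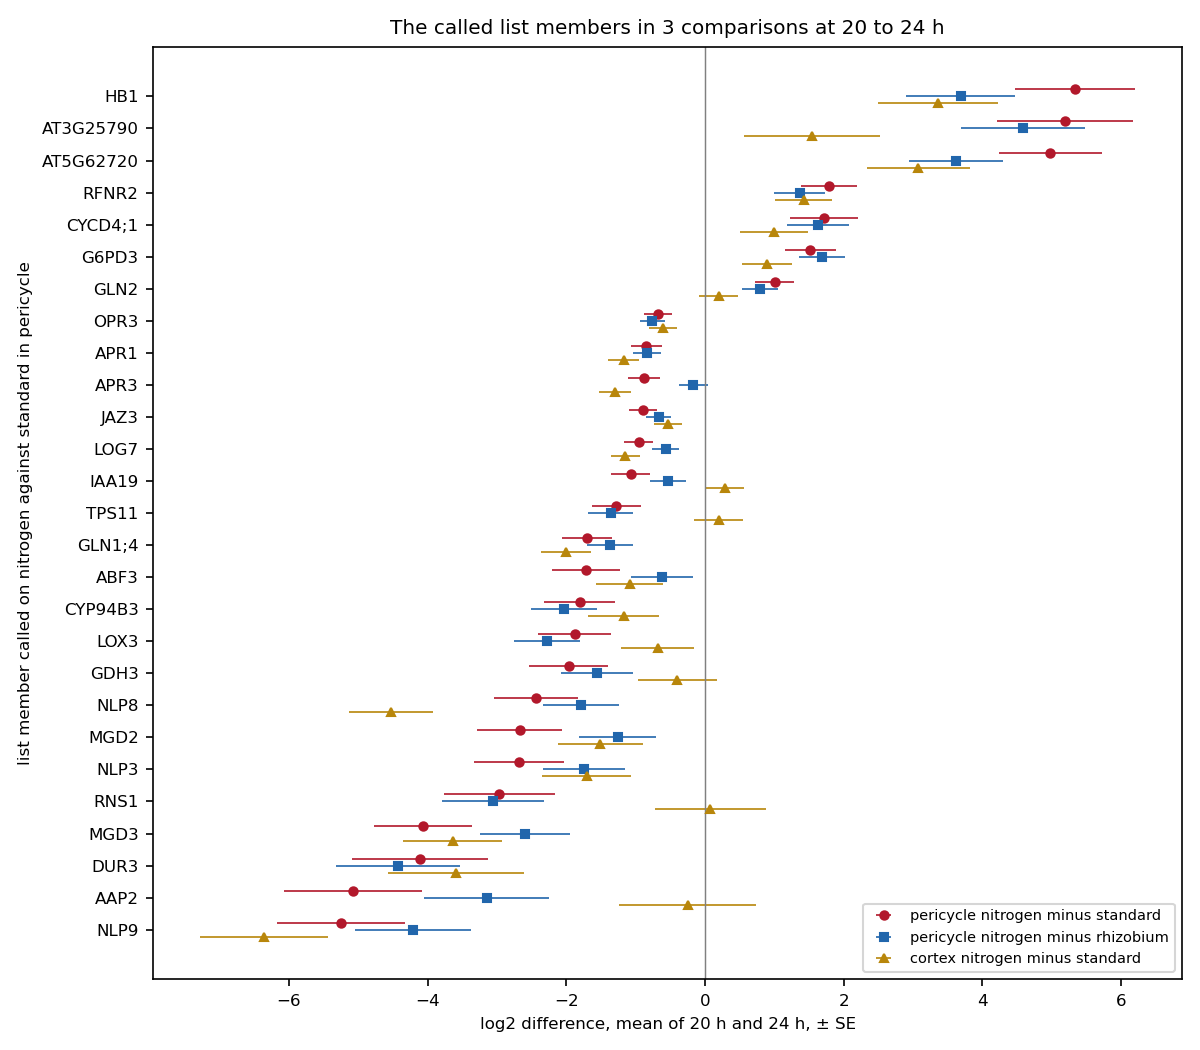
Log2 difference ± SE, averaged over 20 h and 24 h, of the 27 list members called in pericycle on nitrogen against standard, for pericycle nitrogen minus standard (circles), pericycle nitrogen minus rhizobium (squares) and cortex nitrogen minus standard (triangles). All squares lie on the side of the circles, and for AAP2 the circle is at -5.08 while the cortex triangle is at -0.25.

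The response was set against that of the cortex, the layer just outside the endodermis, on 11 arrays of the same hours and treatments. The difference of the 2 responses was called at 202 loci (0.744%), 115 with a higher value in pericycle (0.424%) and 87 with a lower one (0.321%). None of the 27 list members above was among them; AAP2 differed by -5.08 in pericycle and -0.25 ± 0.99 in cortex, a difference of -4.83 between tissues that was not called (adjusted p = 0.0730). AAP2 averaged 4.88 on the cortex nitrogen arrays and 5.13 on the cortex standard arrays, near the lowest values of the table. NLP9 (-6.36 in cortex, adjusted p = 1.41e-07), HB1 (3.36, adjusted p = 0.00747), AT5G62720 (3.08, adjusted p = 0.00367), MGD3 (-3.64, adjusted p = 0.000170), DUR3 (-3.59, adjusted p = 0.0140) and GLN1;4 (-2.0, adjusted p = 3.60e-05) were called in cortex too. In all, 11 of the 27 were called the same way in cortex, where 4.82% of all loci were called.

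Of the genes in the 22 lists, the difference between the tissues was called and positive for 3 of 11 heat shock genes, and called and negative for 1 gene each of the jasmonate (29), abscisic acid (23), auxin (26) and lateral root initiation (22) lists. HSP22.0, HSP23.6-MITO and HSP21, small heat shock proteins, differed between the tissues by 7.67 ± 1.30, 6.12 ± 1.01 and 4.15 ± 1.02 (adjusted p = 5.55e-05, 2.74e-05 and 0.0196). HSP22.0 averaged 7.05 on the pericycle nitrogen arrays and 6.97 on the pericycle standard arrays, against 5.87 on the cortex nitrogen arrays and 13.46 on the cortex standard arrays, so the difference lay in the cortex standard arrays. AT1G71000 (7.17), AT4G21323 (7.06), AT5G37670 (6.63) and AT1G52560 (6.43) had the same pattern, with 4 averages on the cortex standard arrays between 11.90 and 14.54 and differences in pericycle that were not called. The mean of the heat shock list ranged from 13.92 to 14.51 on the cortex standard arrays, above all pericycle arrays of these hours (8.36 to 13.11), and the part of this in the other tissue differences was not tested. RD29A, a target of abscisic acid, differed by -3.26 ± 0.59 (adjusted p = 0.000277), with -1.30 in pericycle and 1.95 in cortex. IAA2, an auxin-induced repressor, differed by -2.06 ± 0.39 (adjusted p = 0.000668), with -0.31 in pericycle and 1.75 in cortex, and the stress transcription factor gene RAP2.1 by -5.18 ± 0.85 (adjusted p = 2.74e-05), with -1.56 in pericycle and 3.62 in cortex. LBD29, a regulator of lateral root initiation, and JAR1, which makes the active jasmonate conjugate, differed by -2.49 ± 0.68 and -1.26 ± 0.34 (adjusted p = 0.0492 and 0.0396). SQP2 (-5.28), AT4G33467 (-4.90), AT2G07363 (-4.88) and AT1G20070 (-4.74) had the other largest negative differences. The count of calls was 76 without the 3 arrays and 109 without cortex nitrogen replicate 1 at 20 h.

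Some of the 27 list members were also called in neighbouring windows of the pericycle course. At 12 to 16 h 178 loci were called (0.656%) and at 36 to 48 h 1316 (4.85%), on arrays not shared with 20 to 24 h; of the 27 list members 9 and 22 were called the same way. NLP9 differed by -5.28 at 12 to 16 h, -5.25 at 20 to 24 h and -7.14 at 36 to 48 h. DUR3 gave -4.09, -4.11 and -6.32 and AT5G62720 gave 2.93, 4.98 and 5.46 over the same windows. HB1 was called at 36 to 48 h (6.18, adjusted p = 9.38e-09) and not at 12 to 16 h (1.81, adjusted p = 0.244), but the difference between windows was not called for it. GA20OX2 differed by 1.40, 3.5 and 1.98 and was called in the middle window. The test of 20 to 24 h against 12 to 16 h called 1 locus (0.00368%), the desaturase gene ADS4 (-2.82 ± 0.56, adjusted p = 0.0396). ADS4 lay between 4.66 and 5.76 on the nitrogen arrays and at 11.30, 5.11, 9.81, 5.63 and 4.81 on the standard arrays, and the 2 high standard arrays were both among the 3 that stood apart; it was not called without them. The test of 36 to 48 h against 20 to 24 h called 0 loci (0.0%) by limma, with a smallest adjusted p of 0.0730 and 1892 loci at an unadjusted p below 0.05. The count of calls against 12 to 16 h was 31 without standard replicate 1 at 12 h, and that of 36 to 48 h against 20 to 24 h was 16 without standard replicate 2 at 20 h.

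**Figure D4:**
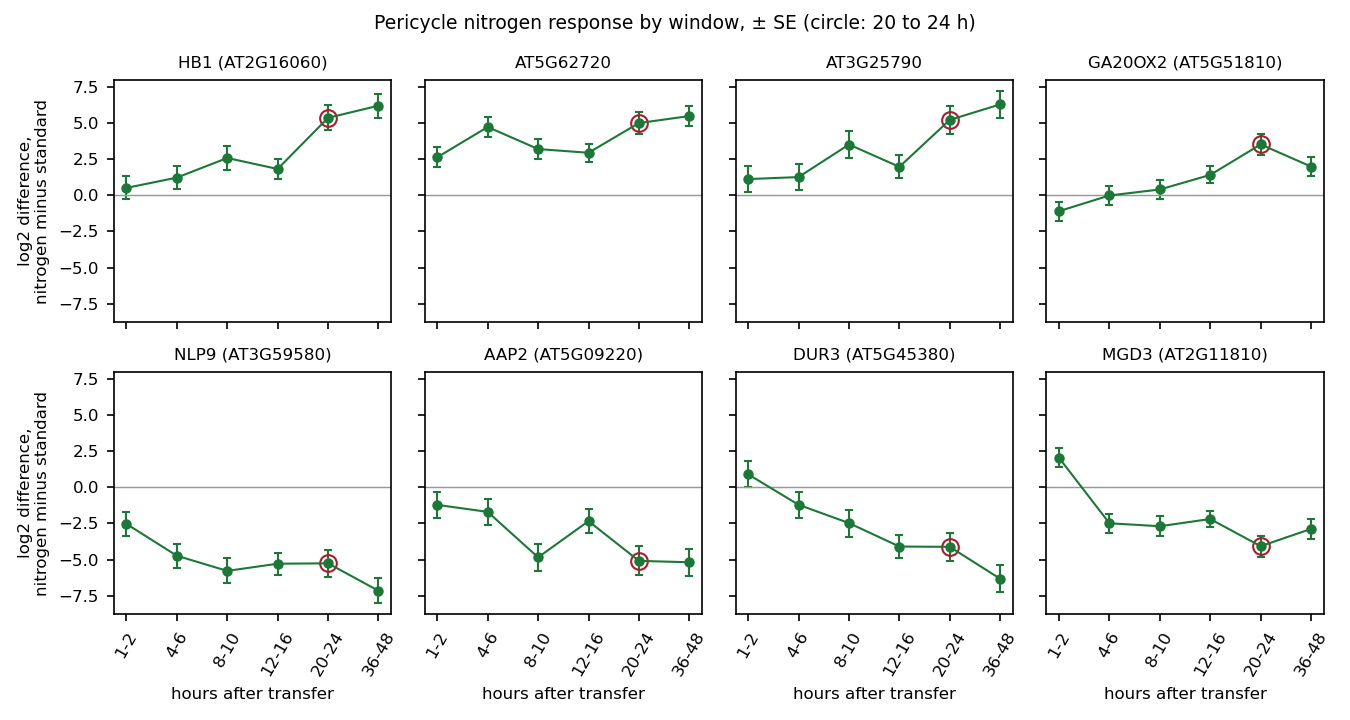
Pericycle nitrogen minus standard difference (log2, ± SE) of 8 loci over 6 windows from 1 to 2 h up to 36 to 48 h, with the 20 to 24 h window circled. NLP9 was at -5.25 and HB1 at 5.34 in that window, and both lay farther from 0 at 36 to 48 h.

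The 5 pericycle arrays taken at 0 h, before the transfer, show where both groups stood. HB1 was at 11.66, 8.27, 13.11, 13.28 and 12.68 at 0 h, so 4 of 5 starting arrays lay above all standard arrays (6.07 to 9.81) and the nitrogen arrays (11.60 to 14.08) were near most of them. AT5G62720 ranged from 7.46 to 10.78 at 0 h, between the nitrogen arrays (10.81 to 12.40) and the standard arrays (6.08 to 7.17). NLP9 ranged from 5.56 to 13.5 at 0 h and MGD3 from 5.64 to 9.56, below the standard arrays (10.05 to 10.93). These values are descriptions and were not tested.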

How the data were processed

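Values were the deposited log2 intensities of all arrays, summarised with RMA per the submitters' processing notes; its software version is not given in the sources used here. Per the labels, the array was a custom NimbleGen design on the TAIR10 genome, hybridised with 1 dye (Cy3). The 31524 rows were averaged to 27143 loci, and 3675 loci had several rows. Symbols came from the RefSeq annotation. Limma 3.58.1 (R 4.3.3) fitted 1 mean per group to 235 arrays in 80 groups, after 1 near-identical pair (pericycle standard at 16 h, replicates 2 and 3) was averaged as 1 array. All adjusted p are Benjamini-Hochberg values of limma's moderated test over all loci. Signal over background was not examined, and the number of arrays limits the precision.

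Named genes were list and marker members, the 15 largest calls in each direction with one sign at both hours, and 5 in each direction for other comparisons. The members and lists were chosen with earlier results of these data known. On simulated data for the pericycle comparison over 27143 loci, the fit recovered 0% of 0.5 log2, 22% of 1 log2, 52% of 2 log2 and 86% of 3 log2 changes. The simulated scatter was independent between arrays, with 1 spread per locus taken from all arrays of the fit. It held no arrays that stood apart together, so these shares need not hold for the real arrays. Alternatives were other fits, scalings and filters, a replicate block and arrays left out. Same-numbered nitrogen and standard arrays were not shown to be pairs.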

Additional observations from a re-analysis of the deposited data

Results flagged for a closer look

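Between pericycle and cortex, the nitrogen response was tested to differ for 16 named genes. The difference was positive for HSP22.0 (7.669), AT1G71000 (7.171), AT4G21323 (7.063), AT5G37670 (6.63), AT1G52560 (6.434), HSP23.6-MITO (6.124) and HSP21 (4.148), whose levels were high on the cortex standard arrays. It was negative for SQP2 (-5.282), RAP2.1 (-5.183), AT4G33467 (-4.903), AT2G07363 (-4.878), AT1G20070 (-4.744), RD29A (-3.256), LBD29 (-2.489), IAA2 (-2.064) and JAR1 (-1.261). Between 20 to 24 h and 12 to 16 h, the response differed for ADS4 (-2.823), which was high on 2 standard arrays that stood apart.

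Of 44 combinations of a gene and a group of arrays tested (22 genes in 2 groups), 7 held an array far from the others, where chance gives about 1 in 20. They are not independent, since 4 of the 7 were the same array. On the rhizobium arrays at 24 h, HB1 was low on replicate 1 (6.894), LOX3 was low on replicate 1 (13.712) and AT5G62720 was high on replicate 4 (10.779). On the arrays taken at 0 h, replicate 1 was low for AT2G36630 (6.71), DUR3 (6.368), RNS1 (6.977) and LOX3 (11.912).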

How the results depend on the processing

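Counts of called loci moved widely between alternatives. For nitrogen against standard (443), the fit of pericycle arrays alone gave 49, the fit of the groups of the comparison alone 1, leaving out both standard replicates 1 gave 39, leaving out the 3 arrays that stood apart 43, and pericycle arrays alone without those 3 gave 3; leaving out 1 array gave 64 to 500. The last 3 of these alternatives were chosen after seeing the data. In the same order, 20 h alone (265) gave 6, 0, 20, 20 and 15, and 23 to 341, and 24 h alone (5) gave 3, 0, 3, 2 and 2, and 3 to 85, with 9 after quantile normalization and 1 without dim loci. The difference between hours (0) gave 1 with the groups alone, 2 with centred arrays, 3 without both standard replicates 1, 3 without the 3 arrays and 0 to 57 with 1 array left out. Pericycle against cortex (202) gave 134 without both standard replicates 1, 76 without the 3 arrays and 109 to 276; below 135 were also the counts without cortex nitrogen replicate 2 at 20 h (116), cortex nitrogen replicate 2 at 24 h (127), cortex standard replicate 3 at 20 h (129) and pericycle nitrogen replicate 3 at 20 h (126). Nitrogen against rhizobium (415) gave 113 with pericycle arrays alone, 1 with the groups alone, 87 with pericycle arrays alone without the 3, and 93 to 868. For 20 to 24 h against 12 to 16 h (1), 0 loci were called with pericycle arrays alone, centred arrays, dim loci left out and all 3 added alternatives, and 0 to 31 with 1 array left out. For 36 to 48 h against 20 to 24 h (0), quantile normalization gave 1, 1 row per locus 1, no standard replicates 1 gave 1, no arrays standing apart 3, pericycle arrays alone without those 3 gave 2, and 1 array left out 0 to 16. The cause was not tested, except that fits with fewer arrays have fewer degrees of freedom. With replicate number as a block the main count was 451 and no count moved by over 1.5 times; same-numbered arrays correlated between -0.0665 and 0.190 over 5 pairs, so they were not shown to be pairs, and all 3 arrays that stood apart are numbered 1. The block ended the calls of OPR3, GDH3 and AT4G02485 (adjusted p = 0.0584, 0.0567 and 0.0567) and, between pericycle and cortex, of SQP2. Of 52 genes followed, none reversed. Most were followed because they were called, and the alternatives reuse most of the same arrays, so reversals were unlikely from the start. Of the 50 called, 36 lost the call with pericycle arrays alone and 49 with the groups alone. It was lost by 42 without the 3 arrays and by 50 with pericycle arrays alone without the 3. The split of calls was 40.6% higher as deposited, 43.9% centred and 44.8% after quantile normalization.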

Other observations

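Genes of ribosomes and of the mitochondrial genome also stood out; both groups were chosen after their values were seen, and neither was tested as a group. Of 71 nuclear loci whose symbol or synonym names a ribosomal protein, 8 rose on nitrogen, none fell and 63 were not called, with a median difference of 0.83 against 0.01 over all loci; without the 3 arrays that stood apart the median was 0.78 and 1 was called. Their mean level ranged from 10.89 to 11.86 on the nitrogen arrays, without overlap with the standard arrays (10.48 to 10.84), and from 10.47 to 12.00 at 0 h. Among them PFL, a protein of the small ribosomal subunit, rose by 1.25 ± 0.27 (adjusted p = 0.00610), RPS15 by 1.29 ± 0.29 (adjusted p = 0.00809), RPS5A by 1.29 ± 0.33 (adjusted p = 0.0210) and RPL23AA, of the large subunit, by 1.2 ± 0.33 (adjusted p = 0.0343). Against rhizobium the median difference of the 71 loci was 0.23 and limma called none, with 9 at an unadjusted p below 0.05 (14.9% of all loci). In cortex 7 rose and 2 fell, with a median of 0.73. At 12 to 16 h in pericycle limma called none (median 0.32). There 12 had an unadjusted p below 0.05, as had 11.3% of all loci. At 36 to 48 h 1 fell (median -0.002).

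Of 94 loci of the mitochondrial genome, 10 fell on nitrogen, none rose and 84 were not called, with a median of -0.44; 1 was called without the 3 arrays (median -0.56) and the fit of pericycle arrays alone kept none of the 10 calls. Against rhizobium limma called none (median -0.27), with 12 at an unadjusted p below 0.05 (14.9% of all loci). Their mean level ranged from 10.66 to 11.95 on the nitrogen arrays and from 11.31 to 12.12 on the standard arrays, which overlap. In cortex at 20 to 24 h 1 fell and none rose, with a median of -0.12. At 12 to 16 h in pericycle limma called none, and the median had the other sign (0.13). There 5 had an unadjusted p below 0.05, as had 11.3% of all loci. At 36 to 48 h 25 of the 94 loci were lower on nitrogen, with a median of -0.90. Their median was -0.79 at 20 h and -0.19 at 24 h.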
